A study of Mus musculus with 200 samples.

Results

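The 10 genes described here encode the subunits of the AMPA and NMDA receptors that the gene tables list under the symbols Gria1 to Gria4, Grin1, Grin2a to Grin2d and Grin3a. They were chosen by name, and each matched 1 of 56941 genes in the tables. RNA was sequenced from the brains of 200 mice, 67 after sham surgery and all others after closed-head injury (CHI), taken 9, 24 or 72 h after surgery. Both groups had anaesthesia and a scalp incision, and CHI mice also received a single midline impact on the intact skull. At 9, 24 and 72 h the CHI and sham groups held 15 and 6, 14 and 6, and 14 and 6 C57BL/6J mice. The IL-1R1 gKO strain had 13 and 6, 12 and 6, and 12 and 6 mice at the same times. The IL-1R1 eRestore strain had 12 and 6, 9 and 5, and 12 and 6 mice. The IL-1R1 nRestore strain had 6 and 4, 8 and 5, and 6 and 5 mice. The labels do not spell out gKO, eRestore or nRestore, and no promoter or recombinase is given for them in the sources used here, so these strains are called by their labels, with IL-1R1 left off where the strain is clear. Mice were 3.3 to 7.67 months old, 102 were female and 98 were male. Each library came from 1 animal.

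AMPA and NMDA receptors are the ion channels that carry most fast excitatory transmission in the brain, and glutamate opens both. AMPA receptors are tetramers of GluA1 to GluA4, the products of Gria1 to Gria4, and a receptor that lacks edited GluA2 lets calcium through. NMDA receptors need GluN1, the product of Grin1, together with GluN2 subunits from Grin2a to Grin2d or GluN3 subunits from Grin3a and Grin3b, and they couple synaptic activity to calcium entry.

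The 4 AMPA receptor genes are close relatives, and the sequence at which GluA2 differs in function from its partners is shown here because the share of Gria2 among them is reported further on. Each line gives 36 bases of the channel pore loop, read 5′ to 3′ on the gene's own strand of GRCm39, with capitals for the codon of the glutamine that is recoded to arginine by RNA editing in Gria2.
Gria1: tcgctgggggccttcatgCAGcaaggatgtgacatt
Gria2: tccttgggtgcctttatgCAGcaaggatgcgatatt
Gria3: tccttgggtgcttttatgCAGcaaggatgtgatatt
Gria4: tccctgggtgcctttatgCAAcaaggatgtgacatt
The stretch lies in exon 11 of Gria1 (chr11:57133902-57133937, plus strand), exon 11 of Gria2 (chr3:80614203-80614238, minus strand), exon 11 of Gria3 (chrX:40699124-40699159, plus strand) and exon 12 of Gria4 (chr9:4464122-4464157, minus strand). It differs from that of Gria2 at 6 bases in Gria1, 2 in Gria3 and 4 in Gria4. The genome encodes glutamine in all 4 genes. Gene counts do not show how much Gria2 RNA was edited, so editing was not measured here. Adarb1, the enzyme that edits this codon, had a mean TPM, the length-scaled relative abundance of its transcripts, of 63.3 in C57BL/6J CHI mice and 67.6 in sham mice at 9 h, a log2 difference of -0.07 (SE 0.108) that did not pass the test (edgeR's quasi-likelihood test, Benjamini-Hochberg adjusted p = 0.716).

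In the GRCm39 annotation the genes do not overlap each other, and their spliced lengths differ widely. Grin2b (chr6:135690231-136150548) has a canonical mRNA of 24238 bases, Grin2a (chr16:9385762-9813424) one of 14866 bases and Gria2 (chr3:80588757-80710538) one of 10767 bases with a GC content of 37.6%. Grin1 (chr2:25181186-25209226) has the shortest, 4318 bases at 59.9% GC. The remaining members are Gria1 (chr11:56902153-57221080), Gria3 (chrX:40489476-40767490), Gria4 (chr9:4417604-4796326), Grin2c (chr11:115139992-115158525), Grin2d (chr7:45481304-45527802) and Grin3a (chr4:49661611-49845847), with mRNAs of 5895, 5546, 5649, 5354, 5434 and 7701 bases. Grin1 overlaps Grin1os and Lrrc26 on the opposite strand, Grin2d overlaps Kdelr1 and Gm45441, Grin2b overlaps 3 lncRNA genes and 1 miRNA gene and Grin2c 1 miRNA gene of the count table, all on the opposite strand, and Grin3a shares its strand with Ppp3r2 and a pseudogene. Gria2, Gria3 and Gria4 each overlap 1 miRNA gene, and Grin2d 1 snRNA gene, on their own strand. Whether counting used strand is not given in the sources used here, and whether the members share reads with these neighbours, whose spans but not exons were compared, was not tested.

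Libraries held 14857985 to 57355676 counts (median 20258935.5), and every member passed the filter on low counts in each of the 12 comparisons of CHI with sham. Sex-linked genes went against the sex label in 2 of 200 mice, of which 1 was an eRestore sham mouse at 24 h and 1 an nRestore CHI mouse at 72 h. Leaving them out left 0 members past the threshold at those times. In those fits 0 of 16715 genes passed in eRestore and 2 of 16431 in nRestore mice, so this is no result about the members. Il1r1, the gene named in 3 of the strain labels, had median levels of 2 TPM in C57BL/6J, 3.94 TPM in gKO, 3.09 TPM in eRestore and 3.83 TPM in nRestore mice, so its gene-level value does not check the strain labels. All mice of 9 h came from experiments that supplied no mice of 24 or 72 h. In this bulk tissue, fewer cells of a type and less RNA per cell cannot be told apart.

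Levels of the 10 genes spanned a wide range of TPM. Over all 200 mice Gria2 was highest with a median of 222.5 TPM (range 90.8 to 296), followed by Grin1 at 195.5 TPM (96.8 to 271), Gria1 at 127.4 TPM (81.7 to 223), Gria3 at 100.2 TPM (61.3 to 137.5) and Gria4 at 70.5 TPM (50.3 to 88.7). The GluN2 and GluN3 genes lay lower. Grin2b had a median of 41.3 TPM (10.02 to 87.4), Grin2a 26.4 TPM (8.46 to 48.5), Grin2c 15.6 TPM (8.89 to 21.7), Grin3a 11.6 TPM (6.08 to 17.4) and Grin2d 4.5 TPM (2.08 to 7.86). The ranges of every pair of neighbours in this order overlapped. Grin2b varied most, 8.73-fold between its lowest and highest mouse, and Grin2a varied 5.73-fold.

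The comparison of CHI with sham at 9 h asked whether injury changed the receptor genes early, and in C57BL/6J mice Gria2, Gria3, Gria4 and Grin3a were lower after CHI and Grin1 was higher. These are 5 of 10 members past an adjusted p of 0.05 (edgeR's quasi-likelihood test with Benjamini-Hochberg adjustment over all genes, sex and age as covariates), against 14.1% of the 16967 genes tested. They were also the members with an unadjusted p under 0.05, which 27.8% of all genes had. By direction, 4 of 10 members were lower, against 7% of all genes, and 1 of 10 was higher, against 7.05%. The median log2 difference of CHI over sham was -0.07 over the members and -0.01 over all genes tested.

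Among the AMPA receptor genes, Gria2, whose product limits calcium entry, showed the clearest difference. Its level in C57BL/6J CHI mice at 9 h was 91.8 TPM in the lowest mouse, 137.1 TPM in the median and 170.9 TPM in the highest, against 143.9, 167.6 and 262.7 TPM in sham mice. In 11 of 15 CHI mice Gria2 lay below every sham mouse, and the other 4 overlapped the sham range. Gria2 fell by 24.2% (log2 difference -0.40, SE 0.0667; edgeR adjusted p = 0.000207). Gria4, a subunit abundant in interneurons, was at 51.4, 62.2 and 76.5 TPM (lowest, median, highest) in CHI and at 62.0, 69.0 and 83.1 TPM in sham mice. The groups overlapped, with 6 of 15 CHI mice below all sham mice. Gria4 fell by 16.9% (log2 difference -0.27, SE 0.0601; edgeR adjusted p = 0.00349). Gria3, a partner of GluA2, was at 70.1, 92.6 and 102.4 TPM in CHI and at 79.8, 101.9 and 137.5 TPM in sham mice. Only 2 of 15 CHI mice lay below all sham mice, so the groups overlapped for most of their range. Gria3 fell by 12.0% (log2 difference -0.18, SE 0.0602; edgeR adjusted p = 0.0400), and this call was lost when sham replicate 1, 3 or 6 was left out (log2 difference -0.12, -0.16 and -0.19, edgeR adjusted p = 0.210, 0.108 and 0.071). Gria1, the subunit moved into synapses in long-term potentiation, was at 107.1, 124.2 and 223.1 TPM in CHI and at 111.1, 119.8 and 141.5 TPM in sham mice. These ranges overlapped apart from 1 CHI mouse above and 2 below, and the log2 difference of 0.08 (SE 0.0868) did not pass the test (edgeR adjusted p = 0.604).

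**Figure D1:**
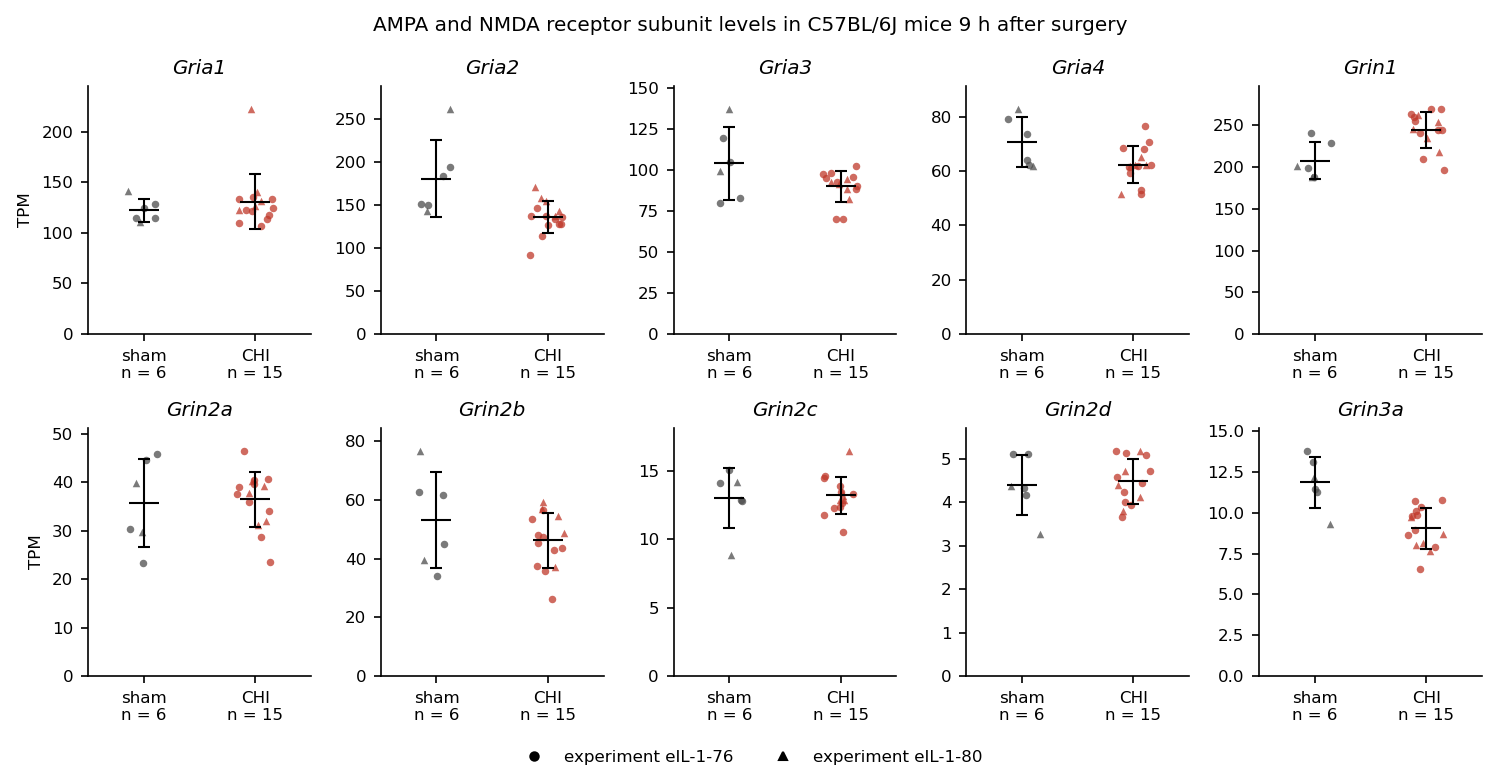
Levels of the 10 members in TPM in each C57BL/6J mouse 9 h after CHI (15 mice) or sham surgery (6 mice), with 1 panel for each gene, points for mice (circles and triangles mark the 2 experiments) and bars for the group mean and SD. Most CHI mice lie below the sham mice for Gria2 (11 of 15 below all of them) and above them for Grin1 (11 of 15 above all of them).

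Of the NMDA receptor genes, Grin1, the obligatory subunit, was at 197.2, 245.3 and 270.3 TPM (lowest, median, highest) in C57BL/6J CHI mice at 9 h and at 188.6, 200.4 and 240.7 TPM in sham mice. In 11 of 15 CHI mice Grin1 lay above every sham mouse, while the remaining 4 overlapped them. Grin1 rose by 17.2% (log2 difference 0.23, SE 0.0478; edgeR adjusted p = 0.00186). Grin3a, which encodes a subunit that lowers calcium entry through NMDA receptors, was at 6.53, 8.96 and 10.8 TPM in CHI and at 9.31, 11.8 and 13.8 TPM in sham mice. Its level lay below all sham mice in 8 of 15 CHI mice. Grin3a fell by 23.8% (log2 difference -0.39, SE 0.0818; edgeR adjusted p = 0.00188).

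The 4 GluN2 genes, whose subunits set the opening time and glutamate affinity of the receptor, did not pass the test in C57BL/6J mice at 9 h. Grin2a, a GluN2 gene whose expression rises after birth, was at 23.5, 37.9 and 46.5 TPM in CHI and at 23.4, 35.2 and 45.8 TPM in sham mice, with a log2 difference of 0.05 (SE 0.0989; edgeR adjusted p = 0.822). Grin2b, expressed early in development and kept in the forebrain, was at 26.2, 47.2 and 59.3 TPM in CHI and at 34.0, 53.2 and 76.8 TPM in sham mice, with a log2 difference of -0.18 (SE 0.118; edgeR adjusted p = 0.346). Grin2a and Grin2b varied so much among sham mice that the groups overlapped almost wholly. Grin2c (10.5 to 16.5 TPM in CHI, 8.89 to 15.1 TPM in sham) and Grin2d (3.65 to 5.19 TPM in CHI, 3.26 to 5.11 TPM in sham) each had a log2 difference of 0.04. Grin3b, the remaining NMDA receptor gene, was near 0 TPM and its log2 difference of -0.16 did not pass the test (edgeR adjusted p = 0.862).

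C57BL/6J mice of 9 h came from 2 experiments, and the direction of each of these 5 members held in both. The 5 were called in a fit that held both experiments, so this is a description and not a separate test. The log2 ratio of the mean TPM of Gria2 was -0.41 in the experiment with 10 CHI and 4 sham mice and -0.41 in the one with 5 and 2. For Grin1 it was 0.20 and 0.32, for Gria3 -0.10 and -0.40, for Gria4 -0.14 and -0.26, and for Grin3a -0.41 and -0.35. Fitted on the larger experiment alone, Gria2 and Grin3a passed the threshold and the other 3 did not, where 1226 of 17220 genes passed. Fitted on the smaller experiment alone, a choice made after seeing the data, 0 members passed edgeR's quasi-likelihood test, where 1.68% of 16644 genes did, and 6 of 10 members had an unadjusted p under 0.05, against 15.5% of all genes.

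Lists of cell type markers were read in the same comparison, in which 7% of all genes were lower and 7.05% higher. Of 7 general neuronal markers 1 was lower in C57BL/6J CHI mice at 9 h (Tubb3), and their summed level was 5695 to 7517 TPM in CHI and 5782 to 7643 TPM in sham mice. Of 6 markers of excitatory neurons 1 was lower (Neurod6), with sums of 2412 to 3011 and 2146 to 2850 TPM, and of 6 markers of inhibitory neurons 0 passed the test, with sums of 1056 to 1514 and 1093 to 1326 TPM. Of 6 microglial markers 3 were lower (P2ry12 with a log2 difference of -1.05, Aif1 and Tmem119), with sums of 135.9 to 259 TPM in CHI and 180.5 to 327 TPM in sham mice, and 2 of 6 astrocyte markers were higher (Gfap with a log2 difference of 1.12, and Aldh1l1). Markers of blood leukocytes were at or near 0. Choroid plexus markers varied far more between mice than any member, with sums of 5.2 to 2523 TPM in CHI and 16.7 to 5996 TPM in sham mice, and 0 of 5 passed the test (median log2 difference -2.03). With the 4 strains fitted together 5 of 5 were lower (median log2 difference -1.99), against 11.9% of all genes. The part of these cell types in the receptor results was not tested. Genes with long or AT-rich mRNAs also had slightly lower medians in this comparison, -0.07 for mRNAs of at least 10000 bases and -0.06 for those under 40% GC. The mRNA of Gria2 belongs to both classes. The fit with a long-transcript index is given further on, and the part of GC content was not tested.

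In IL-1R1 eRestore mice at 9 h, Grin1 was the 1 of 10 members past the threshold in edgeR's quasi-likelihood test, against 7.34% of 16652 genes tested. DESeq2 passed 3 members (Gria2, Grin1 and Grin2a) and 1984 genes. Of all genes 3.24% were lower and 4.1% higher, and an unadjusted p under 0.05 was found for 5 members and for 25.9% of all genes. That count became 2 with experiment in place of age (22.4% of all genes), 3 without covariates (22%), 3 in 1 fit of 3 time points (24.9%) and 3 without sham replicate 2 (20.9%). The level of Grin1 was 194.1, 237.1 and 270.9 TPM (lowest, median, highest) in CHI and 168.6, 191.9 and 204.0 TPM in sham mice. In 10 of 12 CHI mice it lay above every sham mouse. Grin1 rose by 22.7% (log2 difference 0.30, SE 0.0564, edgeR adjusted p = 0.00431). The ratio of means pointed up in both experiments of this strain (log2 0.28 and 0.27), which were both part of that fit. Fitted on either experiment alone, Grin1 missed the threshold (edgeR adjusted p = 0.130 and 0.0521), as did the other 9 members, where 0.801% and 2.25% of all genes passed. Gria2 was at 114.2, 143.8 and 176.7 TPM in CHI and at 118.6, 186.99 and 218.6 TPM in sham mice, with a log2 difference of -0.27 (SE 0.0926) that missed the threshold (edgeR adjusted p = 0.0770). Gria3, Gria4 and Grin3a had log2 differences of -0.04, -0.05 and -0.06 in this strain, and Grin2a and Grin2d differences of 0.24 and 0.21 (edgeR adjusted p = 0.0762 and 0.102).

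In IL-1R1 gKO mice at 9 h, 0 of 10 members passed in edgeR's quasi-likelihood test or in DESeq2, where 0.199% of 16604 genes passed in edgeR and 1.31% in DESeq2. Gria4 alone had an unadjusted p under 0.05, as did 10.7% of all genes, with a log2 difference of -0.16 (SE 0.0668). That count of 1 became 0 without sham replicate 5 (8.93% of all genes) or with gene length offsets in DESeq2 (10.8%). It also became 0 with the long-transcript index described further on as a covariate (10.2%). Gria2 was at 90.8, 173.3 and 211.5 TPM (lowest, median, highest) in CHI and at 153.3, 159.3 and 223.4 TPM in sham mice, a log2 difference of -0.13 (SE 0.114; edgeR adjusted p = 0.753). The gKO mouse with the lowest Gria2 was also the lowest of all 200 mice, and 5 of 13 CHI mice lay below all sham mice while most overlapped them. Grin1 was at 163.4, 224.4 and 259.6 TPM in CHI and at 162.7, 198.6 and 227.5 TPM in sham mice, a log2 difference of 0.13 (SE 0.0721; edgeR adjusted p = 0.568).

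In IL-1R1 nRestore mice at 9 h, which all came from 1 experiment with 8 of 10 mice female, 0 of 10 members passed in edgeR's quasi-likelihood test or in DESeq2, against 0.608% of 16788 genes in edgeR and 2.29% in DESeq2. An unadjusted p under 0.05 was found for 5 members (Gria2, Gria3, Gria4, Grin2b and Grin3a) and for 13.1% of all genes, and the 5 fitted differences were below 0. That count became 2 without sham replicate 1 (11% of all genes) or sham replicate 3 (9.13%), 2 in 1 fit of 3 time points (13.6%) and 0 with the long-transcript index described further on as a covariate (9.81%). Gria2 was at 123.4, 151.2 and 173.9 TPM (lowest, median, highest) in the 6 CHI mice and at 164.7, 185.6, 193.5 and 197.6 TPM in the 4 sham mice, a log2 difference of -0.23 (SE 0.0761; edgeR adjusted p = 0.209). Gria4 was at 60.7, 62.1, 63.1, 63.7, 63.9 and 64.6 TPM in CHI and at 72.8, 73.0, 75.1 and 78.1 TPM in sham mice, a log2 difference of -0.20 (SE 0.0745; edgeR adjusted p = 0.256). Gria4 ranges did not overlap between the groups, as was the case for 4.32% of all genes, and for Gria2 the highest CHI mouse alone overlapped the sham mice. Grin3a was at 8.35 to 11.1 TPM in CHI and at 10.6 to 12.1 TPM in sham mice, a log2 difference of -0.25 (SE 0.0872; edgeR adjusted p = 0.228). Grin2b, with a fitted log2 difference of -0.29 (SE 0.101; edgeR adjusted p = 0.239), overlapped between the groups and had medians of 35.96 TPM in CHI and 35.5 TPM in sham mice, before sex and age were taken into account.

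**Figure D2:**
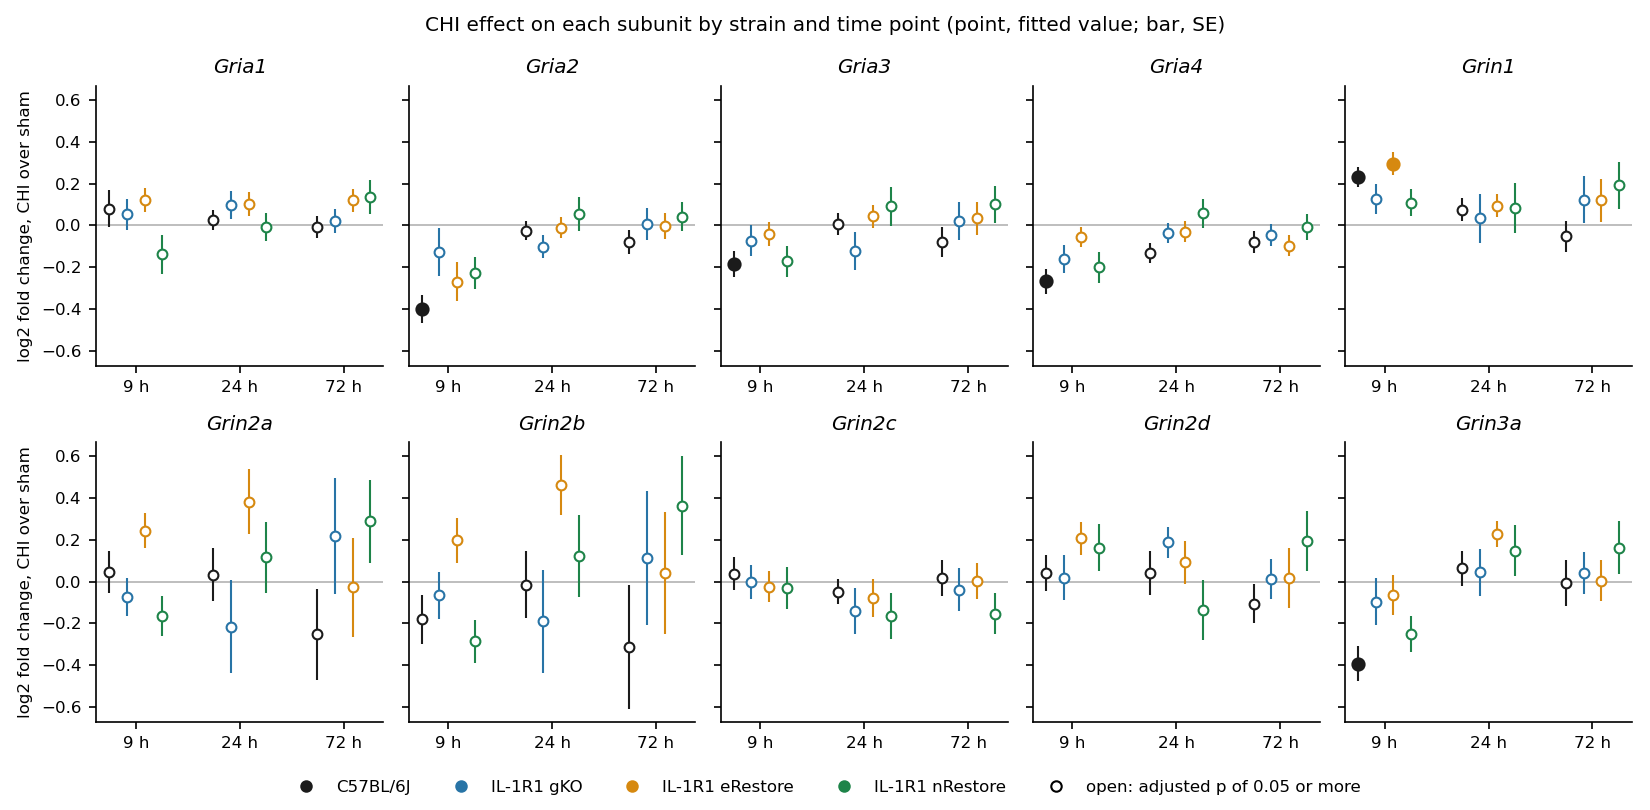
Log2 difference of CHI over sham for the 10 members in each strain at 9, 24 and 72 h, with bars of 1 SE from edgeR and filled points for adjusted p under 0.05. Filled points occur at 9 h alone, for Gria2, Gria3, Gria4, Grin1 and Grin3a in C57BL/6J and for Grin1 in eRestore mice.

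With the 68 mice of the 4 strains at 9 h fitted together, and strain, sex and age as covariates, the same 5 members passed as in C57BL/6J mice alone. The share of all genes past the threshold was 23.9%, with 11.9% lower and 12% higher, and 34.3% had an unadjusted p under 0.05. Gria2 fell by 16.5% (log2 difference -0.26, SE 0.0510), Gria4 fell by 11.3% (-0.17, SE 0.0317), Grin3a fell by 13.2% (-0.20, SE 0.0622), Gria3 fell by 7.93% (-0.12, SE 0.0339) and Grin1 rose by 14.6% (0.20, SE 0.0331). The C57BL/6J mice are part of this fit, so it does not stand apart from their result. In the 47 mice of the other strains, Gria2 (-0.21), Gria4 (-0.14) and Grin1 (0.18) passed the threshold in edgeR's quasi-likelihood test, while Gria3 (-0.10) and Grin3a (-0.13) did not. In that fit 2258 of 18295 genes passed.

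Whether injury acted differently on a member in another strain was tested as an interaction with C57BL/6J. At 9 h 0 of 10 members passed for gKO, eRestore or nRestore (lowest edgeR adjusted p = 0.964, 0.172 and 0.589), where 0.00567%, 0.817% and 0.00555% of all genes passed. An unadjusted p under 0.05 was found for 0 members in gKO and nRestore mice (against 5.29% and 8.5% of all genes) and for Gria4 and Grin3a in eRestore mice, where 13.1% of all genes had one. With experiment in place of age 1 member had one for eRestore mice, against 10.3% of all genes, and 1 for gKO mice, against 6.89%. In eRestore mice the effect of CHI lay above that of C57BL/6J by 0.21 (SE 0.0741) for Gria4 and 0.32 (SE 0.129) for Grin3a on the log2 scale. Thus the strains in which a member did or did not pass were not shown to differ for that member. In the same interactions at 24 and 72 h almost no gene passed (0.0114% in gKO mice at 24 h and 0% in the other 5), so the 0 members that did are no result about them. An unadjusted p under 0.05 was found for 0 members, against 7.92%, 4.26% and 4.7% of all genes with such a p for gKO, eRestore and nRestore mice at 24 h and 3.39%, 4.11% and 5.76% at 72 h. With experiment in place of age this became 1 member for gKO mice at 24 h, against 8.17% of all genes. The effect of CHI was not shown to differ between female and male mice for any member at 9, 24 or 72 h either, where 0%, 0% and 0.00543% of all genes passed, and 0 of 10 members had an unadjusted p under 0.05 in those tests, against 2.29%, 5.26% and 3.8% of all genes.

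At 24 h 0 of 10 members passed the threshold in any strain, by edgeR's quasi-likelihood test or DESeq2. Among all genes 0.404% passed in C57BL/6J, 0.0059% in gKO, 0% in eRestore and 0% in nRestore mice in edgeR, and 0.845%, 0.708%, 0.303% and 0.0176% in DESeq2. In C57BL/6J mice Gria2 was at 197.3, 241.2 and 259.7 TPM (lowest, median, highest) after CHI and at 217.2, 233.5 and 252.5 TPM after sham surgery, a log2 difference of -0.03 (SE 0.0437). Grin1 was at 145.8, 183.6 and 218.9 TPM after CHI and at 144.99, 167.98 and 203.6 TPM after sham surgery, a log2 difference of 0.08 (SE 0.0566). Both genes overlapped over nearly the whole sham range. An unadjusted p under 0.05 was found for Gria4 in C57BL/6J (log2 difference -0.13), Grin2d in gKO (0.19), Grin2a, Grin2b and Grin3a in eRestore (0.38, 0.46 and 0.23) and 0 members in nRestore mice, against 9.07%, 8.86%, 9.05% and 4.34% of all genes. The eRestore differences are those with sex and age in the fit. Before that, the mean level of Grin2a was 30.6 TPM after CHI and 28.8 TPM after sham surgery, that of Grin2b 51.9 and 47.0 TPM and that of Grin3a 13.5 and 13.3 TPM, and 4 of the 9 CHI mice came from an experiment without a sham mouse of this strain and time. The 3 eRestore members became 0 without covariates (3.94% of all genes) or in 1 fit of 3 time points (2.79%), 1 with the long-transcript index (5.77%) and 2 with experiment in place of age (6.85%). The count of 1 in C57BL/6J mice became 0 without covariates (8.48%) or in 1 fit of 3 time points (4.95%), and 2 with the index (10.9%). That of 1 in gKO mice became 0 without covariates (9.74%), in 1 fit of 3 time points (7%) or without sham replicate 4 (11.9%). With experiment in place of age (8.32%) or the index (11.1%) it became 2. An experiment without a gKO sham mouse of 24 h supplied 5 of the 12 gKO CHI mice.

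At 72 h 0 of 10 members passed in any strain by either tool, and the share of all genes past the threshold in edgeR was 0% in C57BL/6J, 0% in gKO, 0.00605% in eRestore and 0.0121% in nRestore mice, the last fitted without sex since all of them were labelled male. In DESeq2 it was 0.225%, 0%, 0.0726% and 0.0666%. In C57BL/6J mice Gria2 had a mean of 222.4 ± 24.8 TPM (SD, n = 14) after CHI and 241.4 ± 17.8 TPM (SD, n = 6) after sham surgery, a log2 difference of -0.08 (SE 0.0575), and 5 of 14 CHI mice lay below all sham mice. Grin1 was at 112.3, 168.9 and 203.9 TPM (lowest, median, highest) after CHI and at 154.3, 177.5 and 214.6 TPM after sham surgery, a log2 difference of -0.05 (SE 0.0742). Gria1 in eRestore mice (log2 difference 0.12) alone had an unadjusted p under 0.05, against 5.15%, 2.25%, 5.7% and 5.63% of all genes in C57BL/6J, gKO, eRestore and nRestore mice. The eRestore count became 0 without sham replicate 5 (5.94% of all genes), without covariates (5.55%) or with experiment in place of age (5.17%). It became 2 in DESeq2 (5.98%) and 3 with the long-transcript index (11.7%). The count of 0 became 1 in C57BL/6J mice with experiment in place of age (7.07%) and in nRestore mice without sham replicate 3 (7.75%). With the strains fitted together 0 members passed at 24 h, against 1.48% of all genes, and 0 at 72 h, against 0.706%, while 3 members at 24 h (Gria1, Grin2c and Grin3a) and 1 at 72 h (Gria4) had an unadjusted p under 0.05, against 14% and 7.46% of all genes. The count at 24 h was 1 or 2 in each of the 7 other settings tried, and 1 with experiment in place of age (11.6% of all genes). That at 72 h was 0 without the C57BL/6J mice (5.78%).

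**Figure D3:**
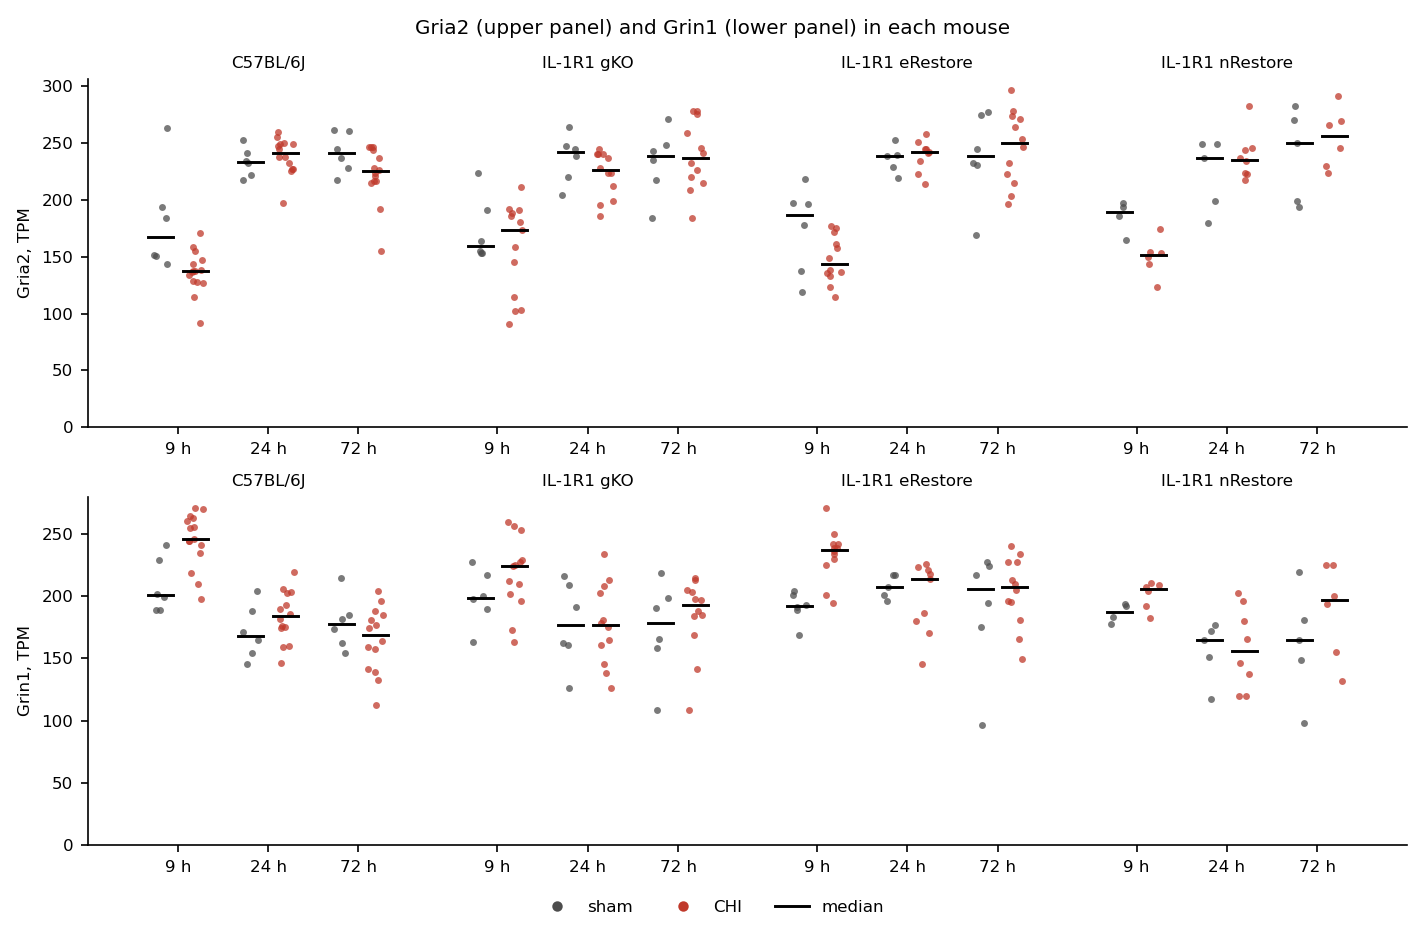
TPM of Gria2 (upper panel) and Grin1 (lower panel) in each of 200 mice by strain, time and surgery, with a bar for each group median. CHI mice of C57BL/6J sit low for Gria2 and high for Grin1 at 9 h, with medians of 137.1 against 167.6 TPM and 245.3 against 200.4 TPM, and overlap the sham mice at 24 and 72 h.

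The change of the effect with time was tested within each strain. In C57BL/6J mice the effect on Gria2 at 9 h was lower than that at 24 h by 0.38 on the log2 scale (SE 0.0932; edgeR adjusted p = 0.00592), where 5.05% of all genes differed and 2.34% were lower. It was lower than that at 72 h by 0.30 (SE 0.0934; edgeR adjusted p = 0.0328), where 6.92% of all genes differed and 3.35% were lower. The effect on Grin1 at 9 h was above that at 72 h by 0.30 (SE 0.0913; edgeR adjusted p = 0.0339), as were those on 3.56% of all genes, while its difference from 24 h of 0.14 (SE 0.0909; edgeR adjusted p = 0.449) did not pass. Gria3, Gria4 and Grin3a passed in neither contrast (lowest edgeR adjusted p = 0.0603, for Grin3a), and an unadjusted p under 0.05 was found for 3 members against 24 h and 4 against 72 h, beside 17.6% and 19.9% of all genes. In the other 3 strains 0 members passed (lowest edgeR adjusted p = 0.191), and few genes did, 0.349% and 0.0776% in gKO, 0.195% and 0.551% in eRestore and 0.114% and 0.18% in nRestore mice for the contrasts with 24 and 72 h. An unadjusted p under 0.05 was found for 0 members in gKO mice (against 8.15% and 9.35% of all genes). Gria2 had one for both contrasts in eRestore mice (against 8.6% and 14.3% of all genes) and in nRestore mice (against 8.02% and 10.9%). In nRestore mice Gria4 also had one for both contrasts and Gria3 for that of 9 h with 72 h. Time after surgery cannot be told apart from experiment here, nor from the hour of day at which tissue was taken, since surgery was done in the morning.

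Subunit balance was then taken within each mouse. Gria2 made up 28.6, 32.2 and 37.9% (lowest, median, highest) of the summed TPM of Gria1 to Gria4 in C57BL/6J CHI mice at 9 h and 34.6, 37.0 and 42.04% in sham mice. In 13 of 15 CHI mice the share lay below every sham mouse. The mean difference was -5.06 percentage points (p = 0.00059 by an exact permutation of the surgery labels, two-sided, and 0.0212 after adjustment over 36 tests), and this was the 1 of 36 comparisons of subunit balance past the threshold. The share was lower by 4.19 points in eRestore mice at 9 h by the same exact permutation test (adjusted p = 0.141), by 2.51 points in gKO mice (adjusted p = 0.576) and by 2.34 points in nRestore mice (adjusted p = 0.300). Over all groups it ran from 28.6 to 42.5% at 9 h, from 39.8 to 47.3% at 24 h and from 40.6 to 47.5% at 72 h, so sham mice of 9 h also had low shares. Leaving out 1 sham mouse moved the C57BL/6J difference to between -5.65 and -4.16 points, and its exact permutation test then missed the threshold for sham replicates 1, 2, 3 and 6 (adjusted p = 0.0604 to 0.0743).

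**Figure D4:**
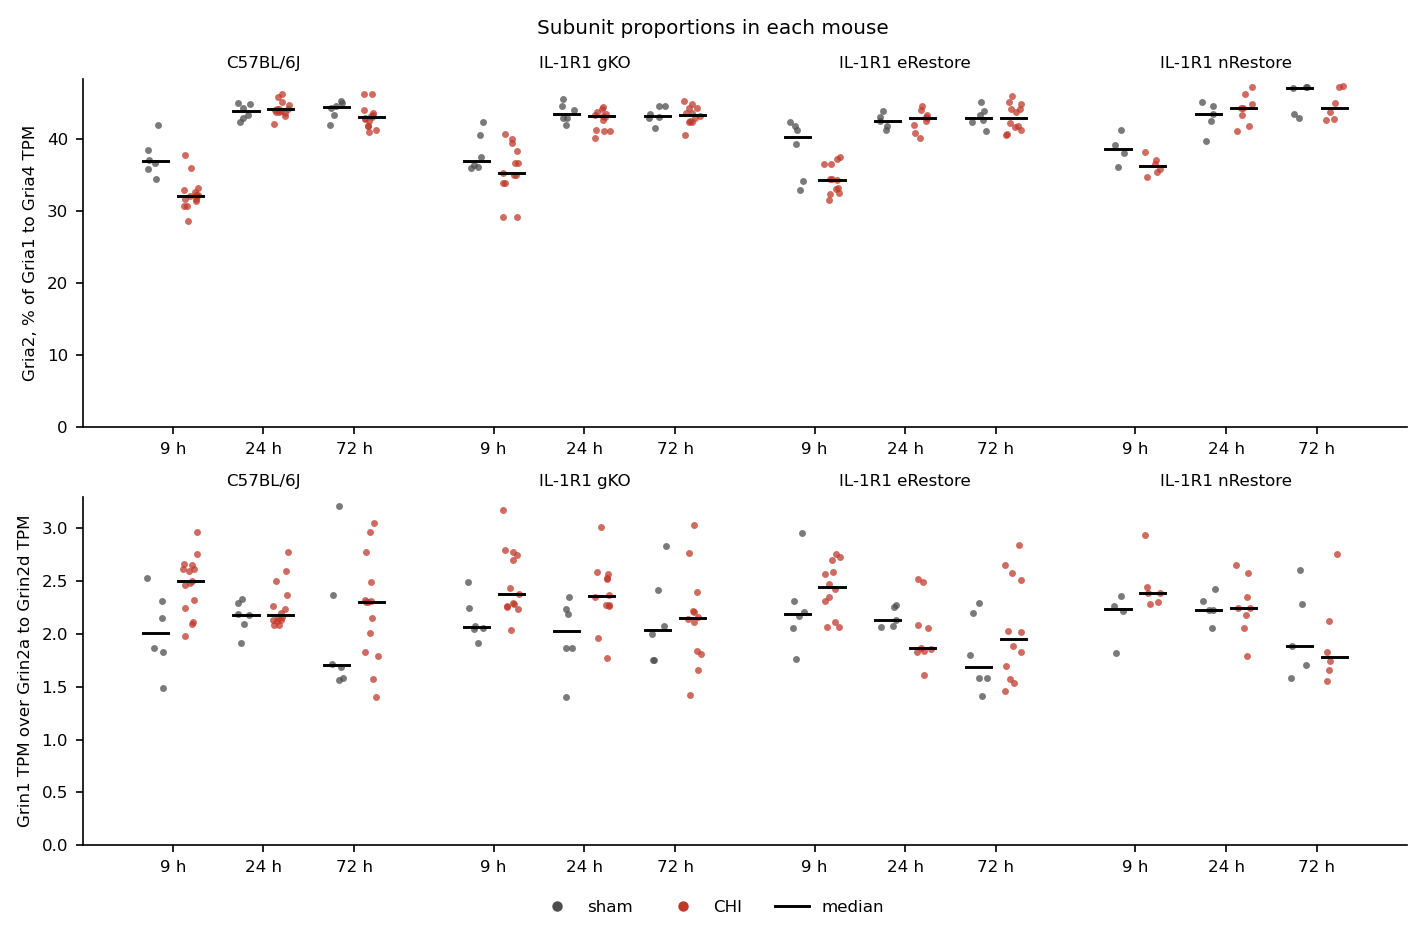
Subunit balance in each mouse by strain, time and surgery, as the percent of Gria1 to Gria4 TPM held by Gria2 (upper panel) and the ratio of Grin1 TPM to the summed TPM of Grin2a to Grin2d (lower panel), with bars for group medians. The Gria2 share of C57BL/6J CHI mice at 9 h lies below all sham mice in 13 of 15 cases.

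For the NMDA receptor genes no balance passed the threshold. The ratio of Grin1 to the summed GluN2 genes in C57BL/6J mice at 9 h was 1.98, 2.50 and 2.97 (lowest, median, highest) after CHI and 1.49, 2.01 and 2.53 after sham surgery, a mean difference of 0.44 (exact permutation test, p = 0.0106, adjusted p = 0.141). Grin2a made up 39.7, 44.6 and 50.1% of the Grin2a and Grin2b TPM after CHI and 34.2, 41.4 and 42.9% after sham surgery, a mean difference of 3.91 points (exact permutation test, adjusted p = 0.141). In 10 of 15 CHI mice that share lay above all sham mice. Grin1 TPM exceeded the GluN2 sum in each of these 21 mice. The permutation tests of subunit balance took no covariate. The part of the long-transcript index, described further on, in these balances was not tested.

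The wide spread of Grin2a and Grin2b was shared between the pair and moved with the level of long mRNAs in the same library. What sets that level, in the library or in the tissue, was not tested. With the mean of each strain, surgery and time group taken off, log2 normalised counts of Grin2a and Grin2b had a Pearson correlation of 0.947 over 200 mice, given as a description. Their correlation with a long-transcript index, the median level of mRNAs of at least 10000 bases relative to mRNAs of 2000 to 4000 bases in the same library, was 0.876 for Grin2a and 0.906 for Grin2b. It was 0.712 for Gria3, 0.647 for Grin3a, 0.488 for Grin1 and 0.456 for Gria2. For Grin2d, Gria4, Gria1 and Grin2c it was 0.403, 0.397, 0.349 and -0.30. The 2 longest mRNAs followed the index most closely. The mRNA of Gria2, with 10767 bases, followed it less closely than the shorter ones of Gria3, Grin3a and Grin1. Gria2 and Grin1 had a correlation of 0.06 with each other, and Gria2 and Gria3 one of 0.61. The index had a mean of 0.00973 ± 0.145 (SD, n = 15) in C57BL/6J CHI mice of 9 h and 0.07 ± 0.253 (SD, n = 6) in their shams. With the index as a covariate, an alternative chosen after the data were seen, the same 5 members passed in these mice, where 3056 of 16967 genes passed, and Gria2 had a log2 difference of -0.37 and Grin1 one of 0.24.

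**Figure D5:**
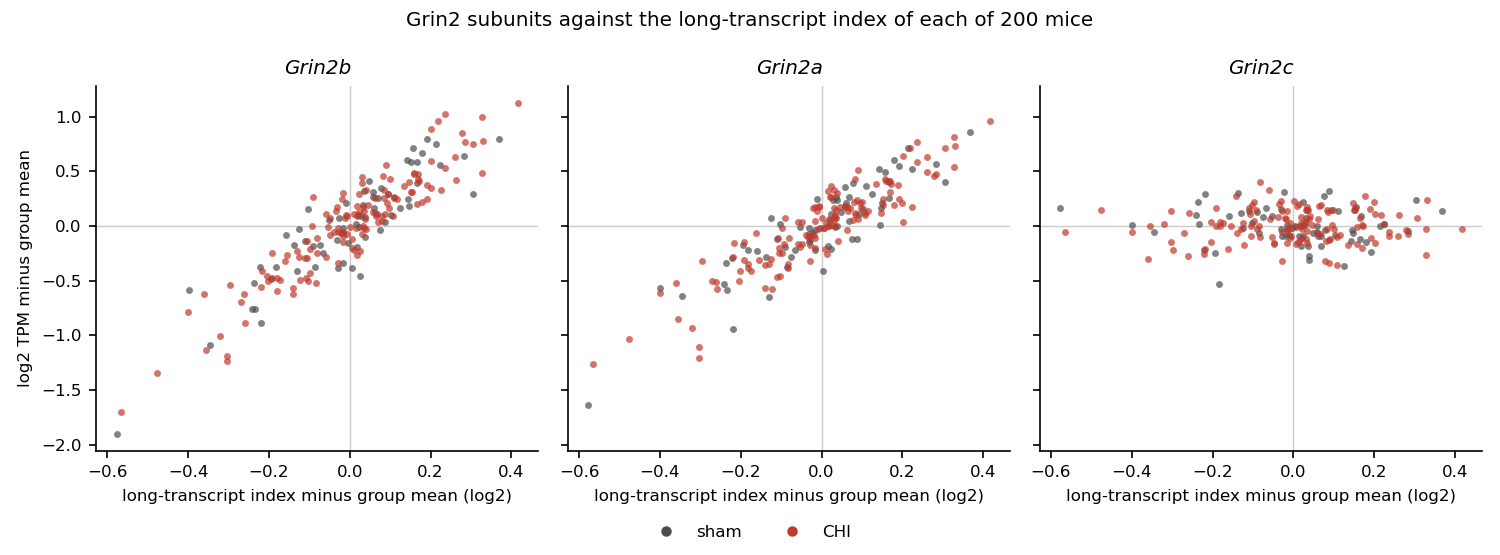
Log2 TPM of Grin2b, Grin2a and Grin2c against the long-transcript index of each of 200 mice, with group means taken off both axes. Grin2b and Grin2a rise along the index and Grin2c does not, and on normalised counts their Pearson correlations with it are 0.906, 0.876 and -0.30.

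The genes whose levels followed each member most closely over the 200 mice were taken from 11815 genes by the same correlation. For Gria2 they were Epha5 (0.767), Thoc2 (0.736) and Ppig (0.733), and for Grin1 Slc12a5 (0.923), Slc8a2 (0.909) and Dnm1 (0.905). For Gria1 they were Shisa6 (0.704), Plppr4 (0.686) and Grm5 (0.676), for Gria3 Ppm1e (0.861), Scn2a (0.829) and Rock2 (0.828), and for Gria4 Fmr1 (0.619), Nrd1 (0.612) and Nlk (0.589). Grin2a had Scn8a (0.957), Grin2b (0.947) and Plxna2 (0.942), and Grin2b had Grin2a, Pcnx (0.93) and Tenm4 (0.928). Grin2c was closest to Tmcc2 (0.67), Grin2d to Disp2 (0.628) and Grin3a to Slc7a14 (0.842). The gene levels compared within a mouse came from the same library and share its depth, while library and depth differed between mice. The correlations are descriptions.

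Genes that act with these receptors were counted in C57BL/6J mice at 9 h from lists of glutamate synapse genes, against 7% lower and 7.05% higher among all genes. Of 26 genes of AMPA receptor auxiliary subunits and assembly factors, 4 were lower and 2 higher, with a median log2 difference of -0.04. Cacng3, which encodes an auxiliary subunit that carries AMPA receptors to synapses, was at a mean of 75.2 TPM after CHI and 97.1 TPM after sham surgery (log2 difference -0.37, edgeR adjusted p = 0.00129), and Shisa9, another AMPA receptor partner, was at 24.2 and 30.7 TPM (-0.34, edgeR adjusted p = 0.00617). Nptx1, a secreted pentraxin that gathers AMPA receptors, was higher at 186.5 against 150.8 TPM (0.31, edgeR adjusted p = 0.00301), as was the auxiliary subunit gene Gsg1l at 44.7 against 34.9 TPM (0.34, edgeR adjusted p = 0.00727). Members of this list moved in both directions. Of 24 scaffold and trafficking genes, 1 was lower, Homer1, which links group I metabotropic glutamate receptors to the synaptic scaffold (-0.32, edgeR adjusted p = 0.0114).

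Of 15 genes of glutamate and D-serine transport and metabolism that were tested in the same comparison, Slc7a11, a cystine and glutamate exchanger, was lower (-0.56, edgeR adjusted p = 0.00330) and Glul, glutamine synthetase, was higher (0.17, edgeR adjusted p = 0.0485). Of 14 genes in a list of RNA editing, splicing and other RNA-binding factors, 3 were lower and 0 higher. They were Fmr1, an RNA-binding protein (-0.24), and the splicing regulators Nova2 (-0.23) and Ptbp2 (-0.20).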

How the data were processed

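The authors made the files with nf-core/rnaseq, aligning poly(A) RNA-seq reads to GRCm39 with STAR and counting with Salmon, and deposited estimated counts and TPM per gene for each mouse. TPM is scaled for length and total, so it was used for levels and shares, and depth is in the counts. Estimated counts were rounded and tested per strain and time with edgeR 4.0.16 in R 4.3.3 (TMM factors, robust quasi-likelihood F test, sex and age as covariates), after a filter that asked for 10 counts or more in a number of mice equal to the smaller group. Adjusted p-values are Benjamini-Hochberg values over all genes tested, with a threshold of 0.05, and an SE is the log2 difference divided by the root of F. DESeq2 1.42.0 was an alternative. Shares and ratios of TPM were compared by exact permutation of the surgery labels on the difference of means, two-sided, with SciPy 1.17.1. The code was tested on simulated counts. All 10 members were tested in each comparison of CHI with sham, and the figure of effects by strain and time shows all of them. The text prints values for all 10 only in the opening comparison. For the other comparisons it prints values for some members at most, so it is a selection. From each list at most 4 genes past the threshold with the smallest p were named. The members and lists were chosen with earlier results of these data known. No protein sequences are printed. Some results of a further gene list are not reported here.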

Additional observations from a re-analysis of the deposited data

Results flagged for a closer look

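In groups of 4 to 10 mice, a mouse was noted when its gap to the nearest other mouse was above the 95% critical value of Dixon's test. This held for 11 of 208 combinations of a group and a level or share, and chance gives about 1 in 20. Grin2c was at 19.6 TPM in C57BL/6J sham replicate 6 at 24 h (the others 14.4 to 16.0) and at 8.89 TPM in C57BL/6J sham replicate 4 at 9 h (12.8 to 15.1). The Grin2a share of Grin2a and Grin2b TPM was 34.2% in C57BL/6J sham replicate 1 at 9 h. In IL-1R1 eRestore mice at 24 h, Gria3 was at 89.3 TPM in CHI replicate 3, Gria4 at 76.5 TPM in sham replicate 4, which is 1 of the 2 mice whose sex-linked genes go against the label, and Grin2d at 3.97 TPM in sham replicate 3. In eRestore sham replicate 3 at 72 h both Gria1 (89.1 TPM) and Grin3a (6.67 TPM) were far below the other sham mice, and the long-transcript index of this library was -0.397. Gria4 was at 84.1 TPM in IL-1R1 gKO sham replicate 1 at 9 h. In IL-1R1 nRestore CHI mice, Gria2 was at 282 TPM in replicate 2 at 24 h and the ratio of Grin1 to the GluN2 genes was 2.93 in replicate 1 at 9 h.

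A difference between time points passed the interaction test in edgeR for Gria2 in C57BL/6J mice, with a log2 effect of CHI at 9 h minus that at 24 h of -0.38 and minus that at 72 h of -0.30. It also passed for Grin1 in C57BL/6J mice at 9 h minus 72 h, by 0.30. The experiments that supplied the mice of 9 h supplied none at the later times.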

How the results depend on the processing

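Of 102 settings tried for the 6 member effects past the threshold at 9 h, 88 kept direction and side of the threshold, 14 fell short of it and 0 reversed. The log2 difference of Gria2 in C57BL/6J mice at 9 h ran from -0.46 to -0.32 and passed in 16 of 17 settings, those of Grin3a in 16, of Gria4 and Grin1 in 15 and of Gria3 in 11. Why a call was lost was not tested, and some of these settings used fewer mice. In C57BL/6J mice at 9 h the count of 5 members became 2 with the larger experiment alone (age dropped from the fit) and 0 with the smaller one, and 4 to 5 with 1 sham mouse left out (10.4 to 14% of all genes). In eRestore mice at 9 h the count of 1 became 3 in DESeq2 (Gria2, Grin1 and Grin2a), 2 with the long-transcript index and 2 in 1 fit of 3 time points (Gria2 and Grin1 in both), 0 in each experiment alone, and 1 to 3 with 1 sham mouse left out (3.28 to 11.3% of all genes). The share of all genes past the threshold moved from 7.34% to 11.9% in DESeq2, 11% with the index, 9.11% in the fit of 3 time points and 0.801% and 2.25% in the experiments. In nRestore mice at 9 h the count of 0 became 1 without the count filter (Grin2b), 1 in 1 fit of 3 time points (Gria4) and 0 to 1 with 1 sham mouse left out (0.07 to 1.27% of all genes), while the share of all genes moved from 0.608% to 2.7% without the filter and 1.8% in the fit of 3 time points. Without the C57BL/6J mice the 4-strain count of 5 became 3. The C57BL/6J Gria2 share at 9 h differed by -5.41 points in the larger experiment (exact permutation adjusted p = 0.0659), and by -5.65 to -4.16 points with 1 sham mouse left out. At 24 and 72 h each setting tried gave 0 members, where 0 to 1.05% of all genes passed within strains and 0.231 to 2.7% with the strains together. Of 858 settings of effects short of the threshold 11 passed it, and 79 that passed in no fit changed sign. The settings with the long-transcript index, the smaller experiments, females alone, the 2 mice against their sex label and the share with a sham mouse left out were chosen after seeing the data. The interaction of nRestore with C57BL/6J at 9 h could not be fitted with experiment in place of age, since those nRestore mice came from 1 experiment that held no C57BL/6J mouse. No paired analysis was possible because replicate numbers follow accession order and no label pairs mice.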

Other observations

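Over the 4 strains at 9 h, Nptx1, which gathers AMPA receptors, was at 180 TPM after CHI and 136.5 TPM after sham surgery (log2 difference 0.38, SE 0.0437; edgeR adjusted p = 2.90e-10), where 11.9% of all genes were lower and 12% higher. Slc7a11, which exchanges cystine for glutamate, was at 7.11 and 10.1 TPM (-0.49, SE 0.0660, edgeR adjusted p = 3.62e-08). In nRestore mice alone, 6 after CHI and 4 after sham surgery, its log2 difference of -0.10 did not pass the test (edgeR adjusted p = 0.807). Of all genes 0.608% passed there. This does not show that the effect on Slc7a11 differs between strains, and its values in the other strains are not given. In eRestore mice 0 of 26 genes of AMPA receptor auxiliary subunits and assembly factors were lower and 5 were higher, against 3.24% and 4.1% of all genes.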
